A study of Rattus norvegicus with 9 samples.

Results

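The genes described here code for the subunits of the proteasome and for the proteins that assemble, cap or bind it, with their RNA levels in cultured smooth muscle cells of the rat aorta (RASMC) that had stopped growing. They are the genes whose single symbol on the array starts with Psma, Psmb, Psmc, Psmd, Psme, Psmf or Psmg and a digit, without the interferon-inducible subunits Psmb8, Psmb9 and Psmb10 and the interferon-inducible activator genes Psme1 and Psme2. The rule itself uses no measured value, and it gave 42 of the 14324 genes that a probe set names alone. RNA came from RASMC of a commercial supplier, kept for 24 hr in medium with 0.2% fetal bovine serum, which brings them to quiescence, washed in medium without K+ and then incubated for 6 hr in K+-free DMEM, in DMEM with 3 mM ouabain or in control DMEM. Each of the 3 conditions has 3 Affymetrix Rat Gene 1.0 ST arrays, so that 9 arrays were compared, and the methods describe the 3 as independent experiments. Ouabain blocks the Na+,K+-ATPase, the pump that carries Na+ out of the cell and K+ in, and a medium without K+ leaves the same pump without the ion it takes up. No genetic change of the cells is described, and wash, serum level and time were the same in all 3 conditions. As all RNA of a culture was pooled, a smaller share of cells that express a gene and less of its RNA per cell cannot be told apart.

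The signals are on the log2 scale, so that a difference of 1 is a 2-fold change, and differences are given with the standard error (SE) of the limma fit. A change was called at a Benjamini-Hochberg adjusted p under 0.05 over all 27342 probe sets together with a fold above 1.2. Array medians lay between 6.76 and 6.80. The smooth muscle genes Tagln, Cnn1, Myl9 and Tpm2 had group means between 11.49 and 13.60, Myh11 and Des lay lower, and Acta2 was not analysed here. Of 9 smooth muscle markers 0 rose and 3 fell in K+-free medium, and 0 rose and 5 fell with ouabain; of 7 macrophage markers 3 rose in K+-free medium and 4 with ouabain, with summed linear signals of 746 to 849 in K+-free medium, 1109 to 1155 with ouabain and 566 to 620 in control medium. Cd68 averaged 7.41 in K+-free medium, 7.76 with ouabain and 6.47 in control medium, and Cd14 averaged 8.41 in K+-free medium, 9.25 with ouabain and 7.97 in control medium, each called up in both treatments; Csf1r, also called in both, and Tyrobp, called with ouabain, had group means of 5.71 to 6.24. Ptprc, a marker of all leukocytes, and Adgre1, a marker of macrophages, had group means of 5.58 to 5.76 on the log2 scale, beside 5.44 for the dimmest of the 42 genes, and none of the 5 endothelial markers had a group mean above 6.80. Of those 5, 1 rose in K+-free medium and 2 with ouabain, with summed linear signals of 322 to 332 in K+-free medium, 313 to 343 with ouabain and 281 to 298 in control medium. Of 6 fibroblast markers 3 rose in K+-free medium and 1 with ouabain, with summed linear signals of 10335 to 11036 in K+-free medium, 9284 to 9705 with ouabain and 8045 to 8242 in control medium. Over all genes 17.8% rose and 24.0% fell in K+-free medium, and 17.5% rose and 22.7% fell with ouabain. The part of these markers in the changes below was not tested.

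The proteasome is the protease that removes most short-lived and damaged proteins of the cytosol and nucleus. Its 20S core is a barrel of stacked rings, in which outer rings of alpha subunits gate the entry and inner rings of beta subunits carry the active sites; the 19S cap recognises ubiquitin chains, removes them and drives the unfolded chain into the core with a ring of ATPases. Dedicated chaperones assemble both parts, and in mammalian cells the transcription factor NRF1 (Nfe2l1) raises the subunit genes together when proteasome activity is short. In vascular smooth muscle the proteasome is known for the turnover of cell cycle and signalling proteins. By role the 42 genes hold 7 alpha subunits, 8 beta subunits, 6 ATPases, 3 scaffold or receptor subunits and 8 lid subunits of the 19S cap, 6 assembly chaperones, 2 alternative activators and 2 binding partners. The last 2 carry a proteasome symbol but are no subunits: the product of Psmc3ip acts in meiotic recombination and transcription, and that of Psme3ip1 binds the activator PSME3. Psma3, Psma8, Psmg3 and the inhibitor gene Psmf1 had no probe set of their own and were not analysed here, and Psma3l, whose symbol RefSeq lists as a synonym of Psma3, is kept under the name the array gives it.

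Promoters are shown for 4 genes on which the results below turn: Psmd5, which rose most, Psmg1, which fell most, Psma6, which moved in opposite directions in the 2 treatments, and Psmb6, the catalytic subunit that fell. The windows run from 250 bases before to 50 bases after the start site that RefSeq gives on build GRCr8, 5′ to 3′ on the strand of the gene. Capitals mark matches on either strand to the core of the antioxidant response element (TGACNNNGC), to which NRF1 and NRF2 bind, to the CCAAT box (CCAAT) or to the site of ETS factors (CCGGAAG). Psmd5 is at chr3:38548441-38548740 on the minus strand, Psmg1 at chr11:48754991-48755290 on the minus strand, Psma6 at chr6:78514097-78514396 on the plus strand and Psmb6 at chr10:55737638-55737937 on the plus strand.
Psmd5: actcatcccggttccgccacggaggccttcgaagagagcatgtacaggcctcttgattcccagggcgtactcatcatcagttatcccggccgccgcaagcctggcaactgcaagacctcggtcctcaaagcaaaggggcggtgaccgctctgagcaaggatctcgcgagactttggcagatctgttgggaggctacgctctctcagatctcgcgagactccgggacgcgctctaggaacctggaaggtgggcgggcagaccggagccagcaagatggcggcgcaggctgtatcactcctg
Psmg1: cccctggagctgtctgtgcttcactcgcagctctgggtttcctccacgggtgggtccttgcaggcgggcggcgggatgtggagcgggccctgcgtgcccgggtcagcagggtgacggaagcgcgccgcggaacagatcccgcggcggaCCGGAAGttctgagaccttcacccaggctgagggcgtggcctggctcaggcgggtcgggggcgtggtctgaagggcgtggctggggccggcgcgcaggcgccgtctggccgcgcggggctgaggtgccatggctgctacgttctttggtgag
Psma6: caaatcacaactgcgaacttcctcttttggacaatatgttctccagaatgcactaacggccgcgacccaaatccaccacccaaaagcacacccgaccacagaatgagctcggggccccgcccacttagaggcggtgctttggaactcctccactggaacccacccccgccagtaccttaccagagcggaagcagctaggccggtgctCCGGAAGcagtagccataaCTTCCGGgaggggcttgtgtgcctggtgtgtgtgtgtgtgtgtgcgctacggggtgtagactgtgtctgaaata
Psmb6: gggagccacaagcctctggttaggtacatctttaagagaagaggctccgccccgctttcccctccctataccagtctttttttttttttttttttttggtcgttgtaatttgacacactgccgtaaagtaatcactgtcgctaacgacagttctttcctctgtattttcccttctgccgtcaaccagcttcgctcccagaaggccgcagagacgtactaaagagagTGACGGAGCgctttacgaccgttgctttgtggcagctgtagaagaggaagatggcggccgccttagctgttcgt
Psmd5 held none of the 3 motifs in this window. Psmg1 held 1 ETS site 102 bases before the start, Psma6 held 2, at 43 and, on the opposite strand, 24 bases before it, and Psmb6 held 1 antioxidant response core 24 bases before it.

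The 42 genes were mostly bright and moved little. Their mean signals ran from 5.44 for Psmb11, a subunit of the thymus, to 12.67 for Psmb2, with a median of 10.66 beside 7.45 over all genes, and 32 of them stood in the brightest 25% of genes. In K+-free medium 3 genes rose, 13 fell and 26 were not called; with ouabain likewise 3 rose, 13 fell and 26 were not called. The median change was -0.18 in K+-free medium and -0.13 with ouabain, against 0.05 in K+-free medium and 0.06 with ouabain over all 14324 genes. The calls among the 42 were 7.14% up and 31.0% down in each treatment. Over all probe sets 16.1% were called up and 17.9% down in K+-free medium, and 15.8% up and 16.8% down with ouabain. In the brightest 25% of genes those shares were 28.9% and 25.4% in K+-free medium and 29.0% and 22.2% with ouabain. Over all 14324 genes they were 17.8% and 24.0% in K+-free medium and 17.5% and 22.7% with ouabain. The share that fell stood above, and the share that rose below, each of these backgrounds. The falls rest on 13 genes in each treatment, and the difference in shares was not tested.

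Nearly all changes were small. A change beyond 2-fold was seen in 0 genes without K+, against 8.62% of all genes, and in 2 with ouabain, Psmd5 and Psmg1, or 4.76% of the 42 against 7.27% of all genes. Beyond 1.5-fold there were 3 in K+-free medium, or 7.14% against 21.1%, and 4 with ouabain, or 9.52% against 19.2%. The interquartile range of the changes was 0.34 in K+-free medium and 0.35 with ouabain, against 0.44 and 0.41 over all genes. The arrays of treatment and control did not overlap for 33 genes in K+-free medium, or 78.6%, against 57.1% of all probe sets and 82.1% of the brightest 25% of genes, and for 31 genes with ouabain, or 73.8%, against 54.2% and 76.7%. Most of those gaps were lower in the treated cells, for 26 of the 33 and 22 of the 31. Over all genes 4402 of 9396 such gaps were lower in K+-free medium and 4128 of 9039 with ouabain. In the brightest 25% of genes 1384 of 2939 and 1214 of 2747 were lower. Across the 3 conditions 8 of the 42 genes had their highest mean in K+-free medium, 11 with ouabain and 23 in control medium. That count was not made over all genes. The same 3 control arrays serve as the reference for each treatment, and the changes are therefore not independent of each other.

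**Figure D1:**
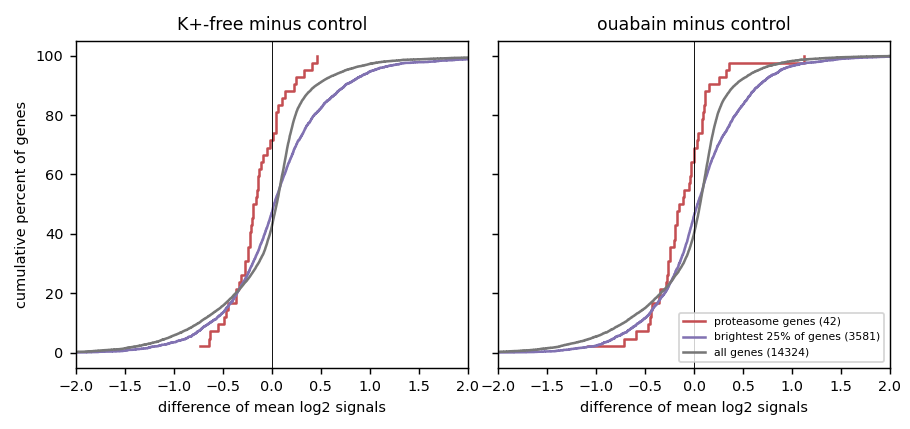
Cumulative percent of genes (vertical axis) against the change in mean log2 signal (horizontal axis) in K+-free medium and with ouabain, each minus control, for the 42 proteasome genes, the 3581 brightest genes and all 14324 genes. The proteasome curves lie left of both others through the middle, with medians of -0.18 in K+-free medium and -0.13 with ouabain. They have short tails apart from Psmd5 and Psmg1 with ouabain.

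**Figure D2:**
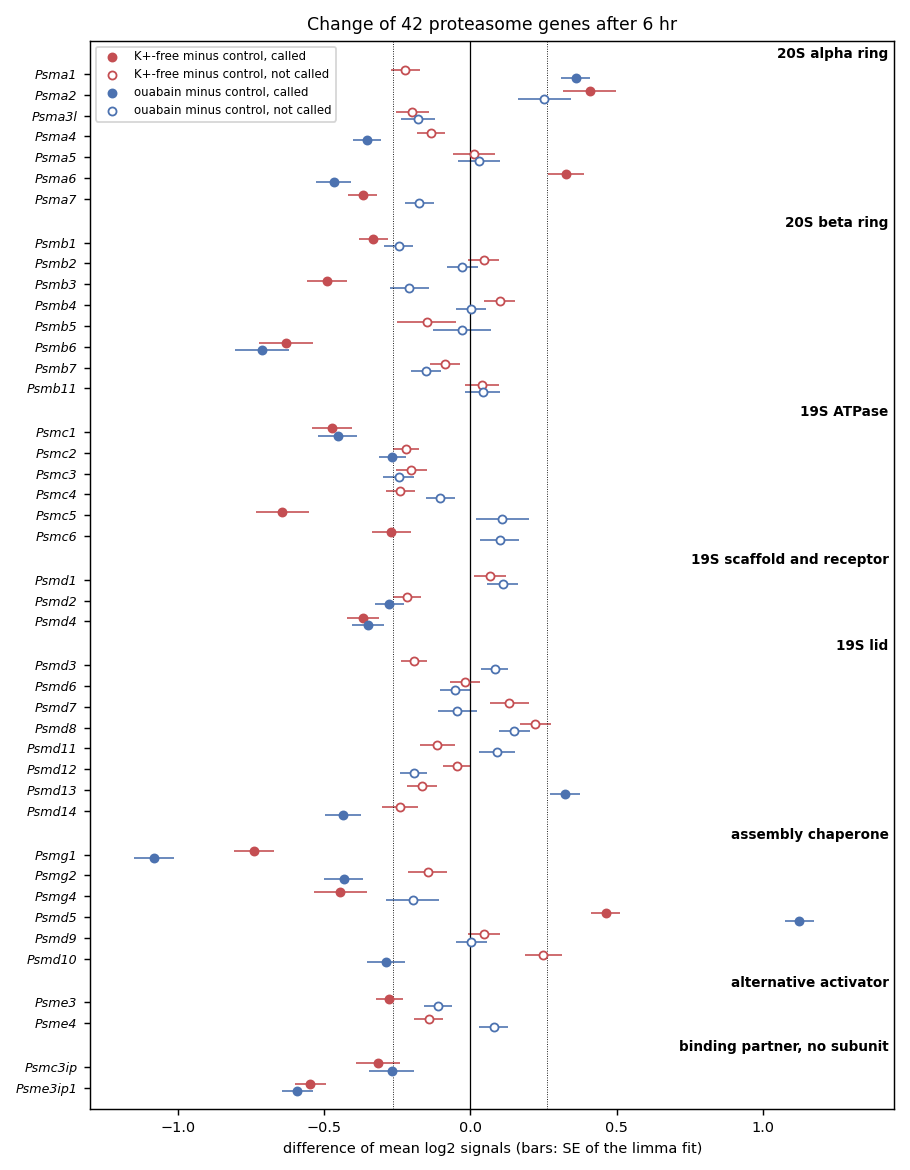
Change of each of the 42 genes in K+-free medium and with ouabain minus control, on the log2 scale, grouped by role; bars are the SE of the fit, filled points were called and dotted lines mark a 1.2-fold change. Most lid subunits stay close to 0. All 6 ATPases are below 0 in K+-free medium, as are 30 of the 42 genes. The 2 points beyond a 2-fold change are Psmd5 and Psmg1 with ouabain.

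In the alpha ring of the 20S core single subunits moved in different directions. Of 7 genes 2 rose and 1 fell in K+-free medium, or 28.6% and 14.3%, and 1 rose and 2 fell with ouabain, or 14.3% and 28.6%. Over all genes 17.8% rose and 24.0% fell in K+-free medium, and 17.5% rose and 22.7% fell with ouabain. Psma6, whose subunit sits in the outer ring, had signals of 11.33, 11.31 and 11.33 on the K+-free arrays, 10.53, 10.64 and 10.41 on the ouabain arrays and 11.01, 11.00 and 10.98 on the control arrays. The K+-free arrays were the highest and the ouabain arrays the lowest, with no overlap among the 3 conditions. Its change was 0.33 ± 0.06 without K+ (adjusted p = 0.000951) and -0.47 ± 0.06 with ouabain (adjusted p = 6.66e-05), and it was the only 1 of the 42 genes called in opposite directions. The rise in K+-free medium was no longer past 1.2-fold after a repeated quantile normalization (0.24), after centring on B2m (0.17) and in the mean of its 2 probe sets (0.23), while the fall with ouabain was called in each. A second, dimmer probe set of Psma6 with a mean of 7.15 changed by 0.13 in K+-free medium and -0.13 with ouabain, neither of them called.

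Psma1, another alpha subunit, had signals of 11.43, 11.45 and 11.39 on the K+-free arrays, 11.99, 12.06 and 11.96 on the ouabain arrays and 11.63, 11.68 and 11.62 on the control arrays. It rose with ouabain by 0.36 ± 0.05 (adjusted p = 0.00013) and differed from control by -0.22 in K+-free medium, below the fold limit, with no overlap of the 3 conditions; centred on B2m the ouabain change was 0.21 and was not called. Psma2, which stood at 10.58, 10.31 and 10.75 on the K+-free arrays, 10.43, 10.37 and 10.37 on the ouabain arrays and 10.13, 10.18 and 10.11 on the control arrays, was highest without K+ but with its 3 arrays spread. Its rise of 0.41 ± 0.09 in K+-free medium passed the test (adjusted p = 0.00359; 0.25 and not called when centred on B2m), and the ouabain difference of 0.25 (adjusted p = 0.0432) was under the fold limit. Psma7 fell by 0.37 without K+ (adjusted p = 8.72e-05), with -0.17 under ouabain, and its fall was not past 1.2-fold after a repeated quantile normalization (-0.25). Psma4 fell by 0.35 with ouabain (adjusted p = 0.000106), with -0.13 in K+-free medium. Psma5, at 0.01 without K+ and 0.03 with ouabain, moved least.

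Of the beta ring 3 of 8 genes fell in K+-free medium, 1 fell with ouabain and none rose in either. The falls were 37.5% in K+-free medium, against 24.0% of all genes, and 12.5% with ouabain, against 22.7%. The 3 catalytic subunits of the constitutive core gave different results. Psmb6, which carries the caspase-like activity, had signals of 10.56, 10.58 and 10.35 on the K+-free arrays, 10.39, 10.59 and 10.24 on the ouabain arrays and 11.21, 11.05 and 11.12 on the control arrays. All 6 treated arrays lay below the 3 control arrays and the treatments overlapped each other. The change was -0.63 ± 0.09 in K+-free medium (1.55-fold, adjusted p = 0.000188) and -0.71 ± 0.09 with ouabain (1.64-fold, adjusted p = 7.59e-05), and a second probe set with a mean of 7.97 fell too, by 0.27 in K+-free medium and 0.33 with ouabain.

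Psmb5, which carries the chymotrypsin-like activity, had signals of 11.39, 11.41 and 11.42 on the K+-free arrays, 11.40, 11.81 and 11.37 on the ouabain arrays and 11.49, 11.61 and 11.58 on the control arrays. Ouabain replicate 2 stood above all control arrays while the other ouabain arrays lay below them. Its change of -0.15 ± 0.10 in K+-free medium (95% interval -0.37 to 0.07) and -0.03 ± 0.10 with ouabain (-0.25 to 0.19) was not called. Psmb7, with the trypsin-like activity, differed by -0.09 ± 0.05 in K+-free medium (-0.20 to 0.03) and -0.15 ± 0.05 with ouabain (-0.27 to -0.04) and was not called either.

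Psmb1, Psmb2, Psmb3 and Psmb4 code for beta subunits with no active site of their own. Psmb3 had signals of 10.31, 10.17 and 10.28 on the K+-free arrays, 10.54, 10.63 and 10.44 on the ouabain arrays and 10.82, 10.67 and 10.74 on the control arrays, lowest on the K+-free arrays without overlap. It fell by 0.49 ± 0.07 without K+ (adjusted p = 0.000102) and differed from control by -0.21 with ouabain. Psmb1 fell by 0.33 without K+ (adjusted p = 0.000198), and its difference of -0.24 with ouabain stayed under the fold limit. Psmb2, the brightest of the 42 genes, and Psmb4 were within 0.10 of control in both treatments, and so was the dim Psmb11, the catalytic subunit of the thymus form.

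All 6 ATPases of the 19S cap, the motor that unfolds substrates, were lower in K+-free medium on every array than in control medium. Of all 42 genes 26 were lower without overlap. Arrays did not overlap, in either direction, for 78.6% of the 42, 57.1% of all probe sets and 82.1% of the brightest 25% of genes. Among the 6 ATPases 3, Psmc1, Psmc5 and Psmc6, were called, or 50%, against 24.0% of all genes called down. The other 3 had adjusted p of 0.00223 (Psmc2), 0.0095 (Psmc3) and 0.00211 (Psmc4) but were under the fold limit. With ouabain 2 fell, Psmc1 and Psmc2, or 33.3% against 22.7% of all genes, and none rose in the main fit. Psmc5 had signals of 8.50, 8.14 and 8.45 on the K+-free arrays, 9.11, 9.11 and 9.14 on the ouabain arrays and 8.88, 9.04 and 9.10 on the control arrays. The K+-free arrays stood apart below the rest, while the ouabain arrays lay just above the controls. It fell by 0.64 ± 0.09 without K+ (1.56-fold, adjusted p = 0.000138) and differed by 0.11 with ouabain (adjusted p = 0.358).

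Psmc1 fell to 10.07, 9.85 and 10.03 in K+-free medium and 10.08, 9.93 and 9.99 with ouabain, against 10.43, 10.42 and 10.51 in control medium. The treated arrays overlapped each other and not the controls, with changes of -0.47 ± 0.07 without K+ (adjusted p = 0.000147) and -0.45 ± 0.07 with ouabain (adjusted p = 0.000216). Psmc6 fell by 0.27 without K+ (adjusted p = 0.00642), just past the fold limit, and differed from control by 0.10 with ouabain. Without K+-free replicate 2 its change was -0.21 and without control replicate 3 it was -0.24, neither past 1.2-fold. Psmc2 fell by 0.27 with ouabain (adjusted p = 0.000617) and its -0.22 in K+-free medium was not called; the fall lost its call without control replicate 1 (-0.26), without ouabain replicate 3 (-0.26) and when arrays were centred on their medians (-0.26). Psmc3 and Psmc4 differed from control by -0.20 and -0.24 in K+-free medium and -0.24 and -0.10 with ouabain. A second probe set of Psmc4 with a mean of 10.34 was called down in K+-free medium, at -0.40.

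The scaffold and the ubiquitin receptors of the cap fell in part. Psmd4, the receptor also known as RPN10, had signals of 8.08, 8.14 and 8.15 on the K+-free arrays, 8.18, 8.13 and 8.11 on the ouabain arrays and 8.53, 8.40 and 8.54 on the control arrays. All treated arrays were below all controls, and it fell by 0.37 without K+ (adjusted p = 0.000191) and by 0.35 with ouabain (adjusted p = 0.000293). After a repeated quantile normalization those changes were -0.17 in K+-free medium and -0.14 with ouabain, and neither was called. Psmd2, which binds ubiquitin-like shuttle factors, fell by 0.28 with ouabain (adjusted p = 0.00074; -0.26 and not called without ouabain replicate 3), and its -0.22 in K+-free medium was below the fold limit. Psmd1, the large scaffold, differed from control by 0.07 in K+-free medium and 0.11 with ouabain and was not called.

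Of the 8 genes of the lid, the 19S part built around the deubiquitinase, 0 were called in K+-free medium, against 41.7% of all genes. There 4 (Psmd14, Psmd3, Psmd13 and Psmd8) still had adjusted p under 0.05. With ouabain 1 rose and 1 fell, or 25% called, against 40.2% of all genes. The difference in shares was not tested. Psmd14, the deubiquitinase RPN11 that strips the ubiquitin chain, had signals of 11.98, 11.86 and 11.95 on the K+-free arrays, 11.75, 11.64 and 11.81 on the ouabain arrays and 12.22, 12.20 and 12.09 on the control arrays. Its change with ouabain was -0.44 ± 0.06 (1.35-fold, adjusted p = 0.000145), and the -0.24 without K+ (adjusted p = 0.00851) was under the fold limit. Psmd13, a structural lid subunit, went the other way with ouabain and had signals of 10.34, 10.23 and 10.26 on the K+-free arrays, 10.80, 10.71 and 10.79 on the ouabain arrays and 10.44, 10.43 and 10.46 on the control arrays. It rose by 0.32 ± 0.05 with ouabain (adjusted p = 0.00034) and differed from control by -0.17 in K+-free medium; centred on B2m the rise was 0.17 and was not called. The other 6 lid genes, Psmd3, Psmd6, Psmd7, Psmd8, Psmd11 and Psmd12, were between -0.19 and 0.22 in K+-free medium and between -0.19 and 0.15 with ouabain.

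The assembly chaperones held the extremes in both directions. Psmd5, a chaperone of the ATPase ring that is not part of the finished proteasome, had signals of 10.25, 10.19 and 10.27 on the K+-free arrays, 10.88, 10.92 and 10.88 on the ouabain arrays and 9.80, 9.79 and 9.73 on the control arrays. The conditions were far apart, with every ouabain array above every K+-free array and these above every control array. Psmd5 rose 1.38-fold in K+-free medium (0.46 ± 0.05, adjusted p = 1.31e-05) and 2.18-fold with ouabain (1.12 ± 0.05, adjusted p = 1.75e-08). It was the only 1 of the 42 genes that rose in both treatments and kept that call under every scaling.

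Psmg1, which with Psmg2 forms the chaperone that starts the alpha ring, went down in both treatments, with signals of 9.20, 9.09 and 9.05 on the K+-free arrays, 8.73, 8.89 and 8.69 on the ouabain arrays and 9.93, 9.79 and 9.84 on the control arrays. Ouabain arrays were lowest and control arrays highest, again without overlap. It fell 1.67-fold in K+-free medium (-0.74 ± 0.07, adjusted p = 3.82e-06) and 2.12-fold with ouabain (-1.08 ± 0.07, adjusted p = 2.16e-07). Its partner Psmg2 had signals of 9.29, 9.09 and 9.19 on the K+-free arrays, 8.91, 8.88 and 8.93 on the ouabain arrays and 9.44, 9.34 and 9.24 on the control arrays, and fell with ouabain by 0.43 (adjusted p = 0.000283), with -0.15 in K+-free medium. In Psmg4, which with Psmg3 acts in alpha ring assembly, the K+-free change was -0.44 ± 0.09 (adjusted p = 0.00187; -0.25 and not called after a repeated quantile normalization) and the ouabain change -0.20.

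Psmd10, the ATPase chaperone also known as gankyrin, had signals of 8.61, 8.48 and 8.43 on the K+-free arrays, 8.07, 7.87 and 7.96 on the ouabain arrays and 8.26, 8.24 and 8.26 on the control arrays. The K+-free arrays were above and the ouabain arrays below the controls. Its change with ouabain was -0.29 ± 0.06 (adjusted p = 0.00366), and the 0.25 without K+ (adjusted p = 0.00847) lay just under the fold limit. The ouabain change was -0.08 (adjusted p = 0.381) after a repeated quantile normalization and -0.24 without ouabain replicate 2, and neither was called. Psmd9, the third chaperone of the ATPase ring in this list, differed from control by 0.05 in K+-free medium (95% interval -0.07 to 0.17) and within -0.12 to 0.12 with ouabain.

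Of the alternative activators, which cap the core in place of the 19S cap, Psme3 (PA28 gamma of the nucleus) fell by 0.28 without K+ (adjusted p = 0.000568; -0.25 and not called without K+-free replicate 3) and differed from control by -0.11 with ouabain. Psme4 (PA200) differed from control by -0.14 in K+-free medium and 0.08 with ouabain and was not called. Both binding partners were called down in both treatments. Psme3ip1 had signals of 9.66, 9.50 and 9.57 on the K+-free arrays, 9.52, 9.56 and 9.53 on the ouabain arrays and 10.12, 10.15 and 10.11 on the control arrays, with a clear gap between treated and control arrays, and changes of -0.55 ± 0.05 in K+-free medium and -0.59 ± 0.05 with ouabain. Psmc3ip changed by -0.31 in K+-free medium and -0.27 with ouabain; its call with ouabain was lost without control replicate 1 (-0.22, adjusted p = 0.0632), without control replicate 3 (-0.24, adjusted p = 0.0541) and when arrays were centred on their medians (-0.26). After a repeated quantile normalization Psmc3ip was called in neither treatment, with -0.20 in K+-free medium (adjusted p = 0.0391) and -0.14 with ouabain (adjusted p = 0.143). With these 2 genes and Psmb11 left out, 3 rose and 11 fell in each treatment.

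**Figure D3:**
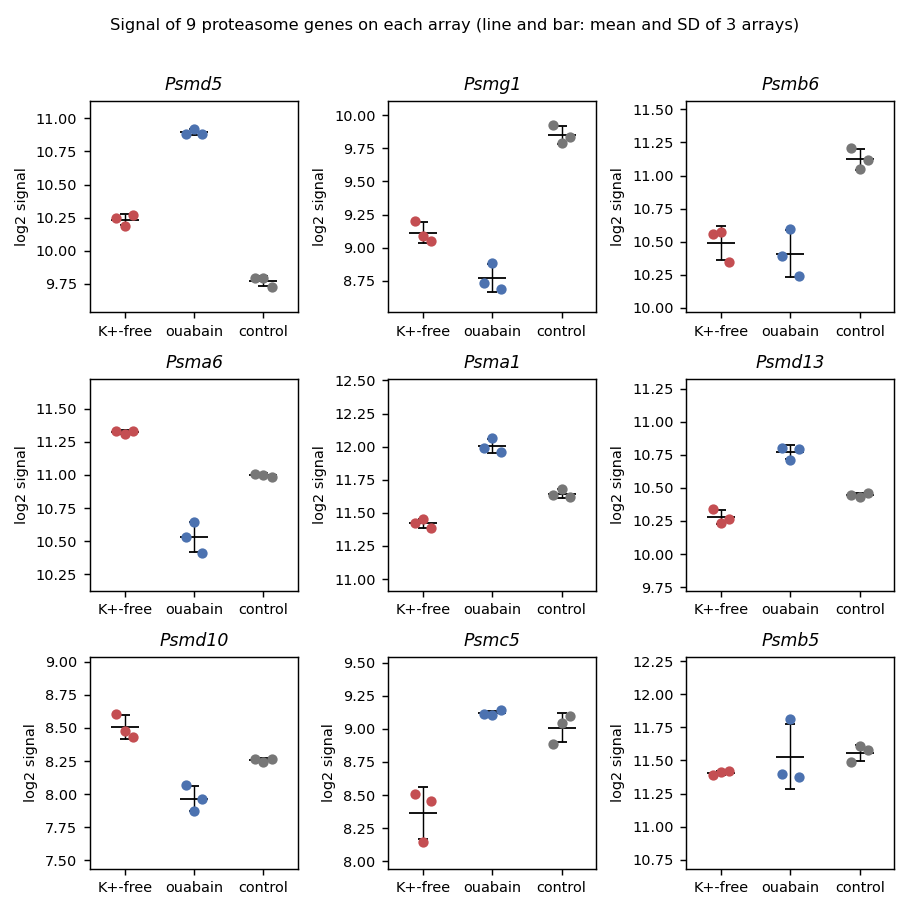
Log2 signal (vertical axis) of 9 proteasome genes on each array in K+-free medium, with ouabain and in control medium; points are arrays, lines and bars the mean and SD of 3, and every panel spans 1.6 log2 units. All genes but Psmb6 and Psmb5 separate the 3 conditions. Psma6, Psma1, Psmd13, Psmd10 and Psmc5 have control between the treatments, and Psmb5 shows 1 ouabain array above the rest.

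Set directly against each other, K+-free medium and ouabain differed in 11 of the 42 genes, 4 of them higher in K+-free medium and 7 lower, or 9.52% and 16.7%; over all probe sets 8.45% were higher and 7.97% lower, and in the brightest 25% of genes 14.1% and 15.3%. The median difference was -0.01. The arrays of the 2 treatments did not overlap for 23 genes, or 54.8%, against 32.4% of all probe sets and 59.6% of the brightest 25% of genes. Higher in K+-free medium were Psma6 by 0.79 ± 0.06 (1.73-fold, adjusted p = 4.53e-06), Psmd10 by 0.54 ± 0.06 (adjusted p = 0.000116), Psmg1 by 0.34 ± 0.07 (adjusted p = 0.00352) and Psmg2 by 0.29 ± 0.07 (adjusted p = 0.00937; 0.24 and not called without K+-free replicate 1, 0.26 and not called after a repeated quantile normalization). The alpha ring chaperones Psmg1 and Psmg2 were thus lower with ouabain than without K+. Psmg4, also of alpha ring assembly, differed the other way, by -0.25, and was not called (limma, adjusted p = 0.0804).

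Lower in K+-free medium than with ouabain were Psmc5 (-0.75 ± 0.09, adjusted p = 0.000131), Psmd5 (-0.66 ± 0.05, adjusted p = 4.02e-06), Psma1 (-0.58 ± 0.05, adjusted p = 1.22e-05) and Psmd13 (-0.49 ± 0.05, adjusted p = 4.81e-05). Psmc6, Psmb3 and Psmd3 followed, at -0.37, -0.28 and -0.28. The difference of Psmb3 lost its call without ouabain replicate 2 (-0.24) and without K+-free replicate 2 (-0.24), and those of Psmb3 and Psmd3 when arrays were centred on reference genes. Psmd3, a lid subunit, was called in this comparison alone, with signals of 10.36, 10.40 and 10.39 on the K+-free arrays, 10.67, 10.68 and 10.64 on the ouabain arrays and 10.58, 10.59 and 10.57 on the control arrays. For 7 of the 13 falls in K+-free medium the ouabain change was not called, and the direct difference was called for 3 of those 7, Psmb3, Psmc5 and Psmc6; Psma7 (-0.19, adjusted p = 0.0152) and Psme3 (-0.17, adjusted p = 0.0272) missed only the fold limit. Likewise 6 of the 13 falls with ouabain were not called in K+-free medium, and the difference was called for 2 of them, Psmd10 and Psmg2, while Psma4 (0.22, adjusted p = 0.00675) and Psmd14 (0.20, adjusted p = 0.0438) missed only the fold limit.

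**Figure D4:**
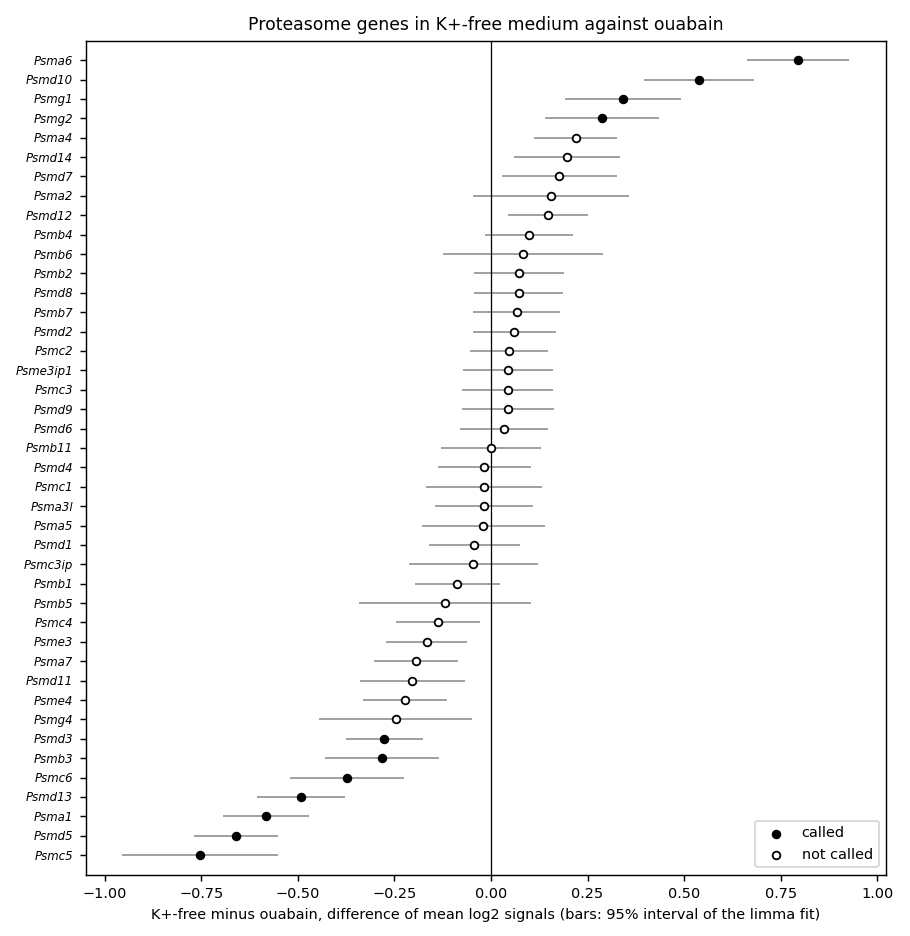
Difference of mean log2 signals, K+-free medium minus ouabain (horizontal axis), of the 42 genes in order of size; bars are 95% intervals of the limma fit and filled points were called. Psma6, Psmd10, Psmg1 and Psmg2 stand at the top, and Psmc5, Psmd5, Psma1 and Psmd13 at the bottom.

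By pattern, 6 genes fell in both treatments (Psmb6, Psmc1, Psmc3ip, Psmd4, Psme3ip1 and Psmg1) and 1 rose in both (Psmd5). Second probe sets of Psmd8 and Psme3 were not called in any comparison. That of Psme3 changed by -0.26 in K+-free medium (limma, adjusted p = 0.0218), beside -0.28 for the main probe set, and missed only the fold limit. A further 17 genes were called in none of the 3 comparisons: the alpha subunits Psma3l and Psma5, the beta subunits Psmb2, Psmb4, Psmb5, Psmb7 and Psmb11, the ATPases Psmc3 and Psmc4, the scaffold Psmd1, the lid subunits Psmd6, Psmd7, Psmd8, Psmd11 and Psmd12, the chaperone Psmd9 and the activator Psme4. Their changes ran from -0.24 (Psmc4) to 0.22 (Psmd8) in K+-free medium and from -0.24 (Psmc3) to 0.15 (Psmd8) with ouabain. Some of the 17 were called under alternatives. After a repeated quantile normalization these were Psmc4 in K+-free medium and Psmd12 with ouabain. RefSeq lists pseudogenes named after 16 of the 42 genes, among them 5 for Psma6, 8 for Psmb3 and 2 for Psmb6. Probes of such genes may also read a near-identical copy, so that the values of these 16 genes are uncertain to that extent.

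Genes that work with the proteasome but are outside the 42 included some larger changes. The interferon-inducible subunits and activators had 0 rises and 1 fall in K+-free medium and 0 rises and 2 falls with ouabain among 5 genes: Psmb10 fell by 0.47 in K+-free medium and 0.49 with ouabain, Psmb9 by 0.34 with ouabain, while Psmb8, Psme1 and Psme2 were not called in either treatment. Among 13 associated proteins 5 rose and 3 fell in K+-free medium, or 38.5% and 23.1%, and 3 rose and 1 fell with ouabain, or 23.1% and 7.69%. Over all genes 17.8% rose and 24.0% fell in K+-free medium, and 17.5% rose and 22.7% fell with ouabain. Uchl5, the deubiquitinase docked on the receptor Adrm1, had signals of 8.42, 8.52 and 8.49 on the K+-free arrays, 8.88, 8.74 and 8.77 on the ouabain arrays and 9.44, 9.55 and 9.54 on the control arrays. All 3 conditions were apart, and it fell by 1.03 in K+-free medium and 0.71 with ouabain, with a direct difference of -0.32 (adjusted p = 0.00198). Adrm1 fell by 0.36 in K+-free medium, with 0.03 under ouabain. Usp14, the other deubiquitinase of the cap, differed from control by 0.05 in K+-free medium and 0.08 with ouabain and was not called.

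Akirin2, which brings proteasomes into the nucleus, rose by 0.95 in K+-free medium and 0.95 with ouabain. The shuttle factor Rad23b rose by 0.44 in K+-free medium and 0.40 with ouabain, and Sem1, the smallest subunit of the cap, by 0.53 in K+-free medium and 0.27 with ouabain. Pomp, the chaperone that matures the beta ring, rose by 0.28 in K+-free medium and differed from control by -0.09 with ouabain, a difference of 0.37 that passed the test (adjusted p = 0.00185). The ubiquitin-activating enzymes fell in part: Uba6 by 0.97 in K+-free medium and 0.85 with ouabain, and Uba1 by 0.35 in K+-free medium, with -0.25 under ouabain.

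Of 14 genes around NRF1 and NRF2, the factors that can raise proteasome genes, 6 rose and 4 fell in each treatment, or 42.9% and 28.6%. Over all genes 17.8% rose and 24.0% fell in K+-free medium, and 17.5% rose and 22.7% fell with ouabain. The difference in shares was not tested. Nfe2l1 (NRF1) had signals of 11.95, 11.98 and 11.99 on the K+-free arrays, 11.55, 11.62 and 11.46 on the ouabain arrays and 11.33, 11.27 and 11.31 on the control arrays, highest without K+. It rose by 0.67 without K+ (adjusted p = 1.38e-06), while 0.24 with ouabain was under the fold limit, and the difference of 0.43 passed the test (adjusted p = 0.000174). Nfe2l2 (NRF2) rose by 0.85 in K+-free medium and 0.65 with ouabain, and their small Maf partners rose too. In K+-free medium Mafk, Maff and Mafg rose by 1.78, 1.77 and 0.56, and with ouabain by 1.46, 1.35 and 0.66. Keap1, which targets NRF2 for degradation, fell by 1.37 in K+-free medium and 1.35 with ouabain. Ngly1, the glycanase needed to activate NRF1, fell by 0.70 in K+-free medium and 1.29 with ouabain, and the protease Ddi2, which cuts NRF1, differed from control by 0.06 in K+-free medium and 0.08 with ouabain and was not called.

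Complexes that share folds with parts of the proteasome or are, like it, built from many subunits were read beside it. Of 9 subunits of the COP9 signalosome, which resembles the lid, 0 rose and 4 fell in each treatment, Cops5, Cops6, Cops7a and Cops7b, by between 0.40 and 0.73 in K+-free medium and between 0.40 and 0.64 with ouabain. Of 10 measured eIF3 subunits 1 rose and 2 fell in K+-free medium and 1 rose and 3 fell with ouabain. Of the 8 subunits of the CCT chaperonin 0 rose, 2 fell without K+ and 1 fell with ouabain. In K+-free medium the falls were 44.4% for COP9, 20% for eIF3 and 25% for CCT, against 24.0% of all genes. With ouabain they were 44.4%, 30% and 12.5%, against 22.7%. Median changes were -0.03, -0.14 and -0.13 for the COP9 signalosome, eIF3 and CCT in K+-free medium, and -0.18, -0.06 and -0.04 with ouabain, beside -0.18 and -0.13 for the proteasome genes. The 9 reference genes had medians of 0.01 in both treatments, but Hprt1 rose in both, by 0.49 in K+-free medium and 0.27 with ouabain. Tbp rose with ouabain, by 0.36.

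RefSeq promoter windows were found for 36 of the 42 genes; Psma3l, Psma7, Psmb11, Psmd6, Psmd12 and Psmd14 had none matched. The antioxidant response core was in 7 of the 36 (19.4%), against 12.2% of 27457 rat promoters and 13.7% of the 11806 whose genes are on the array: Psmb2, Psmb5, Psmb6, Psmd1, Psmd3, Psmd9 and Psme4. Of these 7 only Psmb6 was called against control, down in both treatments. The CCAAT box was in 18 (50.0%), against 37.7% and 38.3%, and the ETS site in 15 (41.7%), against 9.2% and 13.0%. In Psmb2 the response core and a CCAAT box overlapped. Among the 15 genes with the ETS site, to which Psma6 and Psmg1 above belong, 1 rose and 7 fell in each treatment. Among the 18 with a CCAAT box 1 rose and 7 fell in K+-free medium and 2 rose and 6 fell with ouabain. Of all 42 genes 7.14% rose and 31.0% fell in each treatment. Over all probe sets 16.1% rose and 17.9% fell in K+-free medium, and 15.8% rose and 16.8% fell with ouabain. Whether a motif goes with a change was not tested.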

How the data were processed

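RNA of 9 cultures was measured on Affymetrix Rat Gene 1.0 ST arrays. The authors deposited log2 signals of 27342 probe sets, made with RMA, and the labels also name Partek, versions not given in the sources used here. RMA is quantile-normalized, which hides a change of all genes together, and compresses dim signals. Elsewhere the methods mention MAS5, GeneSpring and a larger n than the labels, whose 3 arrays per condition were followed. The number of arrays limits the precision: the SE of the 42 genes was 0.05 to 0.10, and an exact permutation test of 3 against 3 cannot go below p = 0.1. The deposited log2 values were not scaled again. Of the probe sets 15097 carry 1 symbol in the platform annotation, 323 several and 11922 none; a gene with several was represented by its brightest, as for 5 of the 42, and 41 of the 42 gene identifiers are in RefSeq.

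A linear model with a mean for each condition was fitted to the 9 arrays with limma 3.58.1 (R 4.3.3), its variances moderated by empirical Bayes with 4.59 prior degrees of freedom, with Benjamini-Hochberg adjustment over all probe sets of a contrast. It was tested on simulated data first. Groups came from the labels. The genes, lists and motifs were chosen with earlier results of these data known. Named with values were, in each contrast, up to 6 of the largest called rises and falls without overlap, genes called in opposite directions, genes fixed by role (catalytic subunits, deubiquitinase, receptors, activators, chaperones), the extremes of each role, genes called nowhere, and up to 3 further genes per list; per-array values and remarks on other probe sets were added where calls turn on them. Alternatives were scalings, filters, a replicate block, moderation, fold limits, the mean of probe sets and leaving out each array. Python 3.11.15 with matplotlib 3.10.9 drew the figures.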

Additional observations from a re-analysis of the deposited data

Results flagged for a closer look

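Psma6 was singled out because the 2 treatments were called in opposite directions from control and the direct difference between them was called too. All 3 K+-free arrays were above and all 3 ouabain arrays below the controls. The direct difference, K+-free medium minus ouabain, was 0.79 on the log2 scale (limma, adjusted p = 4.53e-06). It was called under every alternative tried, with values of 0.53 to 0.85. As the choice required this call on the same arrays, neither result is separate support. The dimmer second probe set of the gene differed by 0.26 in the same direction, and that was not called (adjusted p = 0.0873).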

How the results depend on the processing

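Of 43 calls among the 42 genes over the 3 comparisons, 10 were kept under all 23 alternatives (22 for the 2 binding partners) and 0 turned direction. The 1.5-fold limit is among these alternatives and ends every smaller call by definition. The 10 are the calls past that limit, so their number reflects the size of the changes. Some calls, such as the falls of Psmb1, Psmb3 and Psmc1 in K+-free medium, were lost under that limit alone. Without a fold limit 5 genes rose and 24 fell in K+-free medium, 5 rose and 20 fell with ouabain, and 7 genes stood higher and 11 lower without K+ than with ouabain; with a 1.5-fold limit these counts were 0 and 3, 1 and 3, and 1 and 2. Centring on B2m, the reference gene of the study's RT-PCR, left 1 rise and 27 falls in K+-free medium (median -0.34) and 1 rise and 21 falls with ouabain (median -0.28). That centring also moved the median of all probe sets to -0.10 in K+-free medium and -0.08 with ouabain, against 0.06 and 0.07, and the calls over all probe sets to 8.69% up and 25.8% down and to 7.92% up and 22.8% down. Repeated quantile normalization left 3 rises and 13 falls in K+-free medium, but not in the same genes. It lost Psma6, Psma7, Psmc3ip, Psmd4 and Psmg4 there and gained Psma1, Psmc2, Psmc4, Psmd10 and Psmd14. With ouabain it gave 5 rises, lost Psmc3ip, Psmd10 and Psmd4 and gained Psma2, Psmb1, Psmb3, Psmc5 and Psmd12. Centring on reference genes gave a median of -0.19 with ouabain. Leaving out each array in turn gave 3 to 4 rises and 12 to 13 falls in K+-free medium, 3 rises and 11 to 14 falls with ouabain, and 3 to 5 higher and 6 to 8 lower between the treatments. The fit with the replicate number as a replicate block kept 16, 16 and 11 calls and changed none. After group means were subtracted, the 9 same-numbered pairs had correlations of -0.05 to 0.31, 4 of them over 0.1. The 18 pairs with different numbers had -0.28 to 0.16, 1 of them over 0.1. The methods say that control and treatments ran side by side in each experiment. The labels do not say whether equal numbers share an experiment, so the main fit has no pairing and may leave out a real one. The cause of the other changes was not tested. Dim probe sets give compressed changes, and the background of each probe was not measured.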
